A study of Gallus gallus with 8 samples.

Results

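Solute carriers are membrane proteins that move sugars, organic acids, ions, metals, nucleotides and other small molecules across the plasma membrane and the membranes of organelles. The genes described here are those whose single symbol in the platform annotation begins with SLC and a digit, without the amino acid and peptide transporter families SLC1A, SLC3A, SLC6A, SLC7A, SLC15A, SLC36A, SLC38A and SLC43A and without SLC20A1, SLC20A2, SLC26A2 and SLC34A2. They number 231 of 13009 genes on the array and have 536 probe sets. Where a gene has several, as 158 of the 231 do, the brightest on average across all arrays represents it. The symbol rule also takes in 3 genes that encode no carrier, SLC4A1AP, SLC9A3R1 and SLC9A3R2, which leaves 228 carriers.

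Total RNA was measured on Affymetrix arrays in cells isolated from a chick growth plate, that of the tibiotarsus, a long bone of the leg, and described by the labels as chondrocytes. There were 4 arrays of hypertrophic chondrocytes, from chicks aged 1 day, and 4 arrays of proliferative chondrocytes, from chicks aged 3 weeks. No treatment was applied, the cells were pooled before RNA was extracted, and the labels name no strain, sex or number of birds. Stage and age differ together in these groups and cannot be told apart. The labels do not say that arrays of a group came from separate pools, so the p-values reflect how far these arrays vary, and that variation may be technical.

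Growth plate chondrocytes live in a tissue with little blood supply and draw much of their energy from glycolysis, so they take up glucose and export lactate. They build sulfated glycosaminoglycan chains in the Golgi from nucleotide sugars and activated sulfate, which carriers bring in from the cytosol. Hypertrophic chondrocytes swell, which depends on ion and water movement, and mineralise their matrix with enzymes such as alkaline phosphatase that carry zinc loaded in the secretory pathway.

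In both groups, arrays 3 and 4 resembled each other far more than any other pair. Over 171 of the 231 genes with a group mean above background, the SD of the difference between arrays 3 and 4 was 0.243 on the log2 scale in hypertrophic and 0.230 in proliferative cells, against 0.528 to 0.906 and 0.344 to 0.451 for the other pairs of arrays. Results are therefore also given with arrays 3 and 4 of each group averaged into 1 sample, which leaves 3 samples per group. Hypertrophic array 1 lay closest to the proliferative arrays on the first principal component. Defining cartilage genes were far above background in both groups. Summed over 10 chondrocyte markers, the log2 level was 16.8 to 17.0 on hypertrophic and 17.1 to 17.2 on proliferative arrays. Of 8 late growth plate markers, SPP1, MEPE and MMP13 rose and 5 did not pass, with a median log2 difference of 2.66 for the list. PHEX and IBSP missed the threshold at 2.71 ± 0.74 and 2.62 ± 0.71 (adjusted p = 0.0552 and 0.0539), though their groups did not overlap. The proliferative mean of PHEX lies below background. Also short of the threshold was COL10A1, the collagen that defines hypertrophic cartilage (0.66 ± 0.43, adjusted p = 0.444). So were IHH (-0.43 ± 0.29, adjusted p = 0.450) and ALPL (0.28 ± 0.25, adjusted p = 0.591). COL10A1 had 13.89, 13.74, 14.32 and 14.29 on hypertrophic arrays, against 11.99, 13.42, 14.14 and 14.07 on proliferative arrays, so it was high in both groups. When single arrays were omitted, MMP13 passed in 1 of 8 fits. Of 4 proliferation markers, MKI67 and CDK1 fell.

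Few of the 231 genes passed the test between the 2 groups. In hypertrophic chondrocytes 6 were higher and 9 lower at an adjusted p under 0.05, and 216 did not pass. That is 2.60% higher and 3.90% lower, beside 7.34% higher and 5.60% lower over all 13009 genes. In either direction it is 6.49% of the genes described here, beside 12.9% of all genes. Of the 6 that rose, SLC16A9 and SLC16A7 belong to the monocarboxylate carrier family SLC16. The others were the sodium-proton exchanger SLC9A7, the mitochondrial ADP/ATP carrier SLC25A4, the scaffold protein SLC9A3R2 and the carnitine carrier SLC22A5. The 9 that fell were the vesicular nucleotide carrier SLC17A9, SLC35G1, the lactate exporter SLC16A3, the zinc carriers SLC30A6, SLC30A7 and SLC39A8, the glucose carrier SLC2A1, the bicarbonate carrier SLC4A7 and SLC35F2. All 6 rises and 3 of the 9 falls were at least 2-fold in size. The median log2 difference of the 231 genes, hypertrophic minus proliferative, was -0.05, beside -0.01 over all genes.

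The 2 groups did not overlap on any array for 36 of the 231 genes, or 15.6%, beside 20.3% of all genes. Both group means of 60 genes lay below the background level of 4.75, which is the highest of the 8 arrays' 95th percentiles over 744 probe sets for viral and reporter sequences, and none of these 60 passed in limma. Over the 171 genes with a group mean above it, 3.51% were higher and 5.26% lower, beside 9.29% and 7.19% of the 9905 such genes on the array. Of the 15 genes that passed, 11 had both means above that level. In a bulk measurement such as this, fewer cells of a type and less RNA per cell cannot be told apart.

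The counts depended on single arrays. With arrays 3 and 4 averaged, 2 genes passed higher (SLC9A7 and SLC9A3R2) and 1 lower (SLC16A3), beside 2.01% higher and 1.24% lower of all genes, or 3.24% in either direction. Without hypertrophic array 1, 17 were higher and 15 lower, beside 1562 and 941 of all genes. Leaving out hypertrophic array 2, 3 or 4 gave 4 higher each time, with 5, 5 and 4 lower, and leaving out proliferative array 1, 2, 3 or 4 gave 5, 5, 4 and 4 higher with 5, 7, 2 and 3 lower. Over all genes, leaving out 1 of those arrays gave 484 to 689 higher and 301 to 630 lower. Centring the arrays on 66 ribosomal protein genes moved the median log2 difference of all probe sets from -0.03 to -0.21. It gave 6 higher and 33 lower, beside 760 and 1742 of all genes. Cyclic loess gave 10 higher and 7 lower, beside 1141 and 657 of all genes. A block that separates arrays 1 and 2 from arrays 3 and 4 changed the counts too. With it 15 were higher and 21 lower, the 15 genes above among them, beside 1418 and 1197 of all genes. In that fit SLC4A2, SLC33A1, SLC30A5, SLC31A1 and SLC10A7 passed (adjusted p = 0.0387, 0.0456, 0.0233, 0.0459 and 0.0243), as did SLC25A6, SLC25A25, SLC26A5, SLC18B1 and SLC22A16 (adjusted p = 0.0379, 0.00772, 0.0267, 0.0249 and 0.0411). All 10 missed the threshold in the main fit of all arrays, which has no block.

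**Figure D1:**
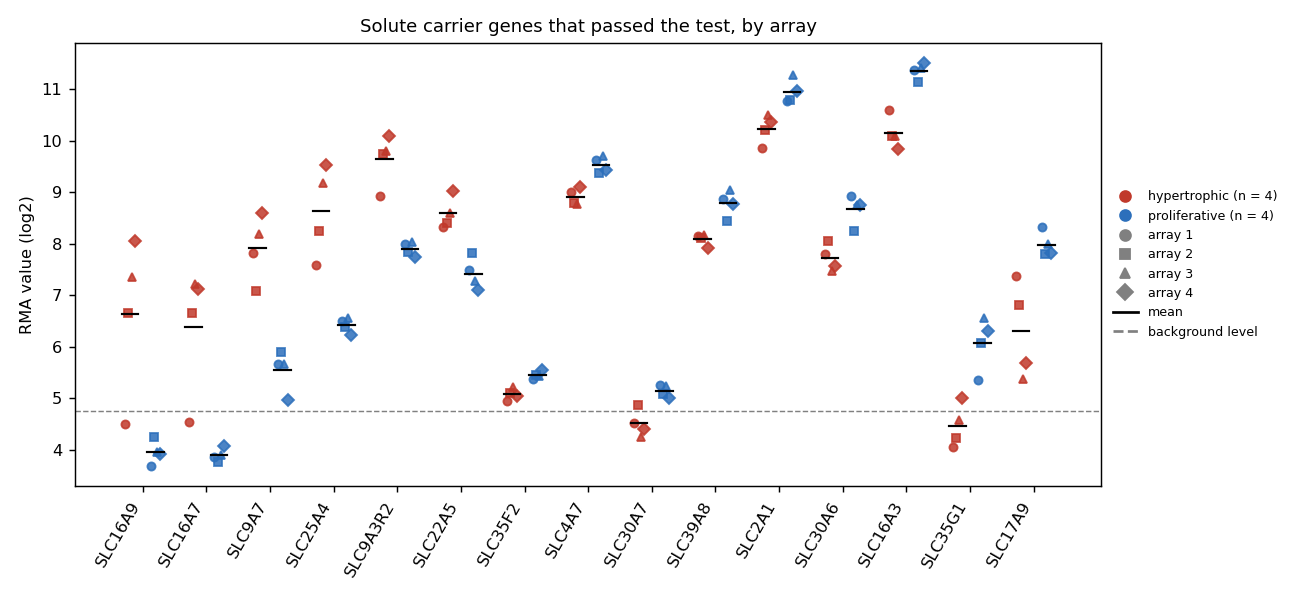
RMA values (log2, vertical axis) of the 15 genes that passed the test, each with its 4 hypertrophic arrays in red at the left and its 4 proliferative arrays in blue at the right. Marker shapes give the array number, black bars the group means and the dashed line the background level of 4.75. The groups do not overlap in any of the 15 genes, and hypertrophic array 1 of SLC16A9 and SLC16A7 lies below the dashed line.

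In the monocarboxylate carrier family SLC16, SLC16A3 fell and SLC16A7 and SLC16A9 rose. Among 17 genes for monocarboxylates and other organic acids, 2 rose, 1 fell and 14 did not pass, which is 17.6% past the threshold beside 12.9% of all genes, with a median log2 difference of -0.09. With arrays 3 and 4 averaged, the fall of SLC16A3 was the 1 call left in the class. SLC16A3, or MCT4, the low-affinity lactate exporter of glycolytic cells, had 10.60, 10.09, 10.08 and 9.85 on hypertrophic arrays 1 to 4, against 11.37, 11.13, 11.40 and 11.51 on proliferative arrays 1 to 4. Every hypertrophic array was below every proliferative one. The log2 difference was -1.20 ± 0.17 (SE, n = 4 per group; adjusted p = 0.00396 in limma), a 2.30-fold lower level, and it also passed with arrays 3 and 4 averaged (adjusted p = 0.0472) and in all 8 fits that leave out 1 array. The other probe set of SLC16A3, a dimmer one, did not pass.

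SLC16A9 and SLC16A7 rose, and both were below background in proliferative cells. SLC16A7, or MCT2, which carries pyruvate and lactate with high affinity, had 4.53, 6.65, 7.22 and 7.11 on hypertrophic arrays, against 3.85, 3.76, 3.90 and 4.08 on proliferative arrays. Hypertrophic array 1 was itself below background, and the other hypertrophic arrays were well above it. With each proliferative array set to at least the background level, the rise was at least 1.63 on the log2 scale, or 3.09-fold (estimate 2.48 ± 0.52, adjusted p = 0.0218). Bounds of this kind concern the estimate and leave out sampling error. SLC16A9, a carrier for which transport of carnitine and creatine has been described in human cells, had 4.49, 6.66, 7.35 and 8.04 on hypertrophic arrays, against 3.69, 4.26, 3.96 and 3.92 on proliferative arrays. It rose by at least 1.88, or 3.69-fold (estimate 2.68 ± 0.64, adjusted p = 0.0346), with hypertrophic array 1 again the lowest of its group. The other probe set of SLC16A9 did not pass. Both genes passed in the fit without hypertrophic array 1 (adjusted p = 2.73e-05 for SLC16A7 and 3.00e-04 for SLC16A9) and missed the threshold when any 1 of the other 7 arrays was left out (adjusted p up to 0.0653 and 0.0922) and with arrays 3 and 4 averaged (adjusted p = 0.136 and 0.18).

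SLC16A1, or MCT1, the widely expressed lactate and pyruvate carrier, did not pass. Its values were 11.57, 10.34, 9.63 and 9.56 on hypertrophic arrays, against 10.85, 10.53, 10.63 and 10.54 on proliferative arrays. Hypertrophic array 1 was the highest of the 8 and arrays 3 and 4 of that group the lowest. The log2 difference was -0.36 ± 0.40, with a 95% interval from -1.25 to 0.53 (adjusted p = 0.683), and without hypertrophic array 1 the gene passed as lower (adjusted p = 0.0331). Of the chaperones that take monocarboxylate carriers to the cell surface, EMB rose by 0.84 ± 0.21 (adjusted p = 0.0414) and BSG differed by -0.02 ± 0.29 (adjusted p = 0.981).

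Among 32 genes of families classed as sugar carriers, SLC2A1 fell and the other 31 did not pass. That is 3.12% past the threshold, beside 12.9% of all genes. The median log2 difference of the class was -0.07. SLC2A1, or GLUT1, the basal glucose carrier of most cells, had 9.85, 10.20, 10.50 and 10.37 on hypertrophic arrays, against 10.77, 10.79, 11.28 and 10.95 on proliferative arrays. The groups did not overlap, and the log2 difference of -0.72 ± 0.17 (adjusted p = 0.0326) is a 1.65-fold lower level. The call was lost without proliferative array 1, 3 or 4 or hypertrophic array 2 or 4 (adjusted p up to 0.0904) and with arrays 3 and 4 averaged (adjusted p = 0.114). SLC37A2, a sugar phosphate carrier that osteoclasts and macrophages express, had 9.89, 9.15, 8.93 and 8.60 on hypertrophic arrays, against 8.55, 8.84, 8.35 and 8.65 on proliferative arrays, and its difference of 0.55 ± 0.25 did not pass (adjusted p = 0.244). Hexokinases, which trap glucose in the cell, differed by 0.39 ± 0.20 for HK1 and by 0.002 ± 0.09 for HK2, and lactate dehydrogenase LDHA by -0.25 ± 0.17, none past the test. SLC2A3 was not analysed here.

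Among the metal carriers, 3 zinc carriers were lower in hypertrophic cells. Of 25 genes for zinc, iron, copper, manganese and magnesium, 3 fell, none rose in limma at the threshold and 22 did not pass, with a median log2 difference of -0.11. The share past the threshold was 12.0%, beside 12.9% of all genes. An unadjusted p under 0.05 was found for 10 of the 25, beside 61 of the 231 genes and 3888 of all 13009 genes. SLC30A6, a subunit of the complex that brings zinc into the Golgi for enzymes such as alkaline phosphatase, had 7.81, 8.05, 7.47 and 7.57 on hypertrophic arrays, against 8.92, 8.24, 8.74 and 8.75 on proliferative arrays. It fell by 0.94 ± 0.18 (adjusted p = 0.0149), and its second brightest probe set fell by 1.21 ± 0.32 (adjusted p = 0.0468). No other of its 4 probe sets passed. Its partner in that complex, SLC30A5, had 10.49, 10.30, 9.31 and 9.56 on hypertrophic arrays, against 11.05, 10.58, 10.93 and 10.80 on proliferative arrays. These groups do not overlap either, but the difference of -0.92 ± 0.26 missed the threshold (adjusted p = 0.0625) and passed without hypertrophic array 1 (adjusted p = 0.0156).

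SLC30A7, another zinc carrier of the early secretory pathway, had 4.53, 4.87, 4.26 and 4.41 on hypertrophic arrays, against 5.25, 5.07, 5.25 and 5.01 on proliferative arrays. Its hypertrophic mean lies below background, which bounds the log2 difference at -0.36 or lower (estimate -0.63 ± 0.14, adjusted p = 0.0293). SLC39A8, or ZIP8, which brings zinc and manganese into the cytosol, had 8.16, 8.12, 8.17 and 7.92 on hypertrophic arrays, against 8.87, 8.45, 9.04 and 8.78 on proliferative arrays. It fell by 0.69 ± 0.14 (adjusted p = 0.0186), and its other 2 probe sets differed by -0.94 ± 0.26 and -0.81 ± 0.31 without passing (adjusted p = 0.0630 and 0.155). With arrays 3 and 4 averaged none of the 3 genes passed (adjusted p = 0.120 for SLC30A6, 0.149 for SLC30A7 and 0.108 for SLC39A8). SLC30A6 lost the call without proliferative array 3 or 4 (adjusted p up to 0.0524), SLC39A8 without proliferative array 1, 3 or 4 or hypertrophic array 4 (adjusted p up to 0.0563), and SLC30A7 in every fit without 1 array except those without hypertrophic array 1 or 2 (adjusted p up to 0.0914).

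SLC30A1, the zinc exporter of the plasma membrane, split along the array numbers. It had 7.45, 7.29, 8.75 and 8.72 on hypertrophic arrays, against 9.34, 9.43, 8.68 and 8.60 on proliferative arrays. Hypertrophic arrays 1 and 2 were the lowest of the 8 and proliferative arrays 1 and 2 the highest, while arrays 3 and 4 of both groups lay together. The difference of -0.96 ± 0.38 did not pass (adjusted p = 0.167). With arrays 1 and 2 of each group alone it was -2.01 and passed in limma (adjusted p = 0.00650). With arrays 3 and 4 alone it was 0.09. The metallothionein MT3, a metal-binding protein, had 9.97, 11.52, 13.06 and 13.17 on hypertrophic arrays, against 13.31, 13.48, 11.92 and 11.81 on proliferative arrays, so that it was lower in hypertrophic cells on arrays 1 and 2 and higher on arrays 3 and 4. It differed by -0.70 ± 0.72 and the related MT4 by -0.61 ± 0.37, neither past the test (adjusted p = 0.656 and 0.403), and the zinc-sensing transcription factor MTF1 by 0.23 ± 0.19 (adjusted p = 0.560). SLC39A13, or ZIP13, a zinc carrier needed for collagen modification in connective tissue, had 9.53, 9.21, 8.18 and 8.29 on hypertrophic arrays, against 9.79, 9.19, 9.44 and 9.23 on proliferative arrays, which leaves -0.61 ± 0.31, short of the threshold (adjusted p = 0.292).

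Neither the copper importer nor the iron exporter passed by its representing probe set. SLC31A1, or CTR1, the copper importer, had 10.97, 11.002, 9.47 and 9.35 on hypertrophic arrays, against 11.28, 11.13, 11.09 and 11.02 on proliferative arrays. Its representing probe set differed by -0.93 ± 0.38, short of the threshold (adjusted p = 0.190), while 3 of its other 5 probe sets fell, by 0.85 ± 0.19, 0.94 ± 0.18 and 1.37 ± 0.28 (adjusted p = 0.0274, 0.0161 and 0.0186). ATOX1, the copper chaperone of the cytosol, rose by 0.70 ± 0.12 (adjusted p = 0.00829). The iron exporter ferroportin, SLC40A1, was below background in both groups, with values from 3.31 to 4.51 on hypertrophic and from 3.40 to 4.59 on proliferative arrays. The transferrin receptor TFRC had 9.53, 9.34, 8.29 and 8.63 on hypertrophic arrays, against 10.89, 10.97, 11.21 and 10.92 on proliferative arrays, a fall of the log2 level by 2.05 ± 0.26 (adjusted p = 0.00266). Ferritin heavy chain, FTH1, which stores iron, rose by 0.67 ± 0.13 (adjusted p = 0.0144). The mitochondrial iron importer SLC25A37 had values from 6.51 to 6.96 on hypertrophic and from 6.41 to 7.05 on proliferative arrays, and its difference of -0.04 ± 0.16 had a 95% interval from -0.40 to 0.32.

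**Figure D2:**
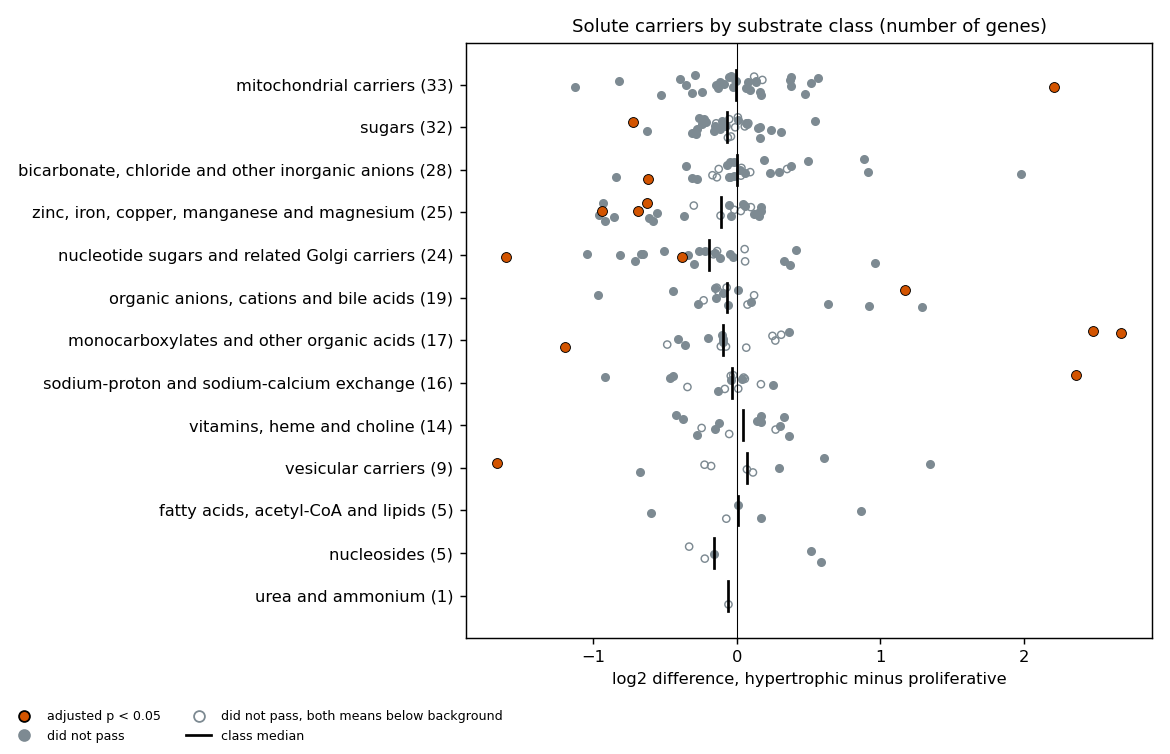
Log2 difference, hypertrophic minus proliferative (horizontal axis), of each of the 228 carriers, in rows by substrate class with the number of genes in parentheses. Orange points passed at an adjusted p under 0.05, grey points did not, open points had both group means below background, and black bars are class medians. Class medians lie between -0.19 for nucleotide sugar carriers and 0.07 for vesicular carriers.

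Nucleotide sugar carriers of the Golgi and their relatives had the lowest median of the classes, -0.19 on the log2 scale. Of 24 genes 2 fell, none rose in limma at the threshold and 22 did not pass, 8.33% past the threshold beside 12.9% of all genes. An unadjusted p under 0.05 was found for 7 of the 24, beside 3888 of all 13009 genes. Differences were negative in 18 of the 24, beside 6794 of 13009 genes. SLC35G1, a relative of these carriers, had 4.06, 4.23, 4.58 and 4.999 on hypertrophic arrays, against 5.36, 6.08, 6.55 and 6.30 on proliferative arrays. Its hypertrophic mean lies below background, which bounds the log2 difference at -1.26 or lower, a level at least 2.39-fold lower (estimate -1.60 ± 0.28, adjusted p = 0.0107). It passed in all 8 fits that leave out 1 array but missed the threshold once arrays 3 and 4 were averaged (adjusted p = 0.0589). SLC35F2 fell by 0.38 ± 0.10 (adjusted p = 0.0489), with values from 4.94 to 5.23 on hypertrophic and from 5.37 to 5.55 on proliferative arrays, and this call was lost in each of the 8 fits without 1 array (adjusted p from 0.0579 to 0.140). Neither of its other 2 probe sets passed.

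SLC35D1, which carries UDP-glucuronic acid and UDP-N-acetylgalactosamine for chondroitin sulfate and is needed for skeletal growth in mice, did not pass. It had 10.46, 10.22, 8.59 and 8.45 on hypertrophic arrays, against 10.91, 10.03, 10.48 and 10.49 on proliferative arrays. Hypertrophic arrays 3 and 4 were lower than all others, and arrays 1 and 2 lay within the proliferative range. The difference of -1.05 ± 0.46 (adjusted p = 0.222) had a 95% interval that reached from -2.09 to just past 0. It was -0.13 with arrays 1 and 2 of each group alone and -1.96 with arrays 3 and 4 alone. SLC35B2, which carries activated sulfate, had 8.19, 7.84, 7.63 and 7.20 on hypertrophic arrays, against 7.90, 7.78, 7.88 and 7.78 on proliferative arrays, and differed by -0.12 ± 0.19 with a 95% interval from -0.55 to 0.31 (adjusted p = 0.799).

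Several enzymes supply these carriers or use what they bring into the Golgi. UGDH, which makes UDP-glucuronic acid, had 11.49, 10.79, 11.58 and 11.30 on hypertrophic arrays, against 12.43, 12.28, 13.001 and 13.11 on proliferative arrays, and fell by 1.41 ± 0.24 (adjusted p = 0.00860). UXS1, which turns it into UDP-xylose for the chain linker, fell by 1.33 ± 0.16 (adjusted p = 0.00214), PAPSS1, which activates sulfate, by 0.68 ± 0.13 (adjusted p = 0.0154), and the chondroitin polymerising factor CHPF by 0.84 ± 0.22 (adjusted p = 0.0496). PAPSS2 and CSGALNACT1 differed by -0.83 ± 0.23 and -0.79 ± 0.22 and missed the threshold (adjusted p = 0.0551 and 0.0563). UGP2, which makes UDP-glucose, differed by -0.29 ± 0.11 and did not pass either (adjusted p = 0.138).

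These enzymes belong to a list of 41 genes that work with solute carriers, of which 34 were measured. In that list 4 rose, 6 fell and 24 did not pass, 29.4% past the threshold beside 12.9% of all genes, with a median log2 difference of -0.13. Of the 34, 31 had a group mean above background, and 16.5% of the 9905 such genes on the array passed. The list was chosen with earlier results of these data known, so its share is no independent result. Besides EMB, ATOX1 and FTH1, the pyrophosphate transporter ANKH rose, by 3.55 ± 0.63, and besides TFRC, UGDH, UXS1, PAPSS1 and CHPF the membrane-bound carbonic anhydrase CA12 fell, by 1.43 ± 0.32. With arrays 3 and 4 averaged, TFRC and UXS1 fell (adjusted p = 0.0302 and 0.0329) and none of the list rose in limma at the threshold. EMB lost the call without proliferative array 1, 2 or 4 or hypertrophic array 3 or 4 (adjusted p up to 0.108), CHPF without proliferative array 1, 2, 3 or 4 or hypertrophic array 3 or 4 (adjusted p up to 0.124), CA12 without proliferative array 1, 3 or 4 or hypertrophic array 3 (adjusted p up to 0.0820), PAPSS1 without proliferative array 3 or 4 (adjusted p up to 0.0513) and FTH1 without proliferative array 3 (adjusted p = 0.0517). Without proliferative array 3 or 4, 3 genes of the list fell. When a block separated arrays 1 and 2 from 3 and 4, 10 fell, PAPSS2 and CSGALNACT1 among them (adjusted p = 0.0232 and 0.0306).

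**Figure D3:**
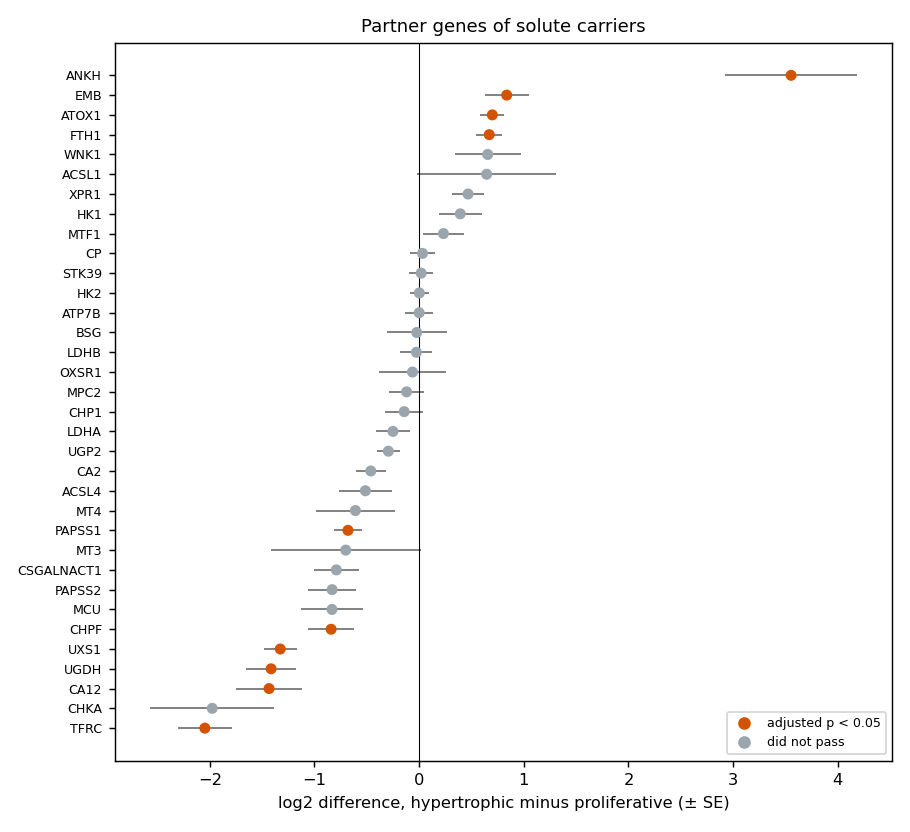
Log2 difference, hypertrophic minus proliferative (horizontal axis, bars ± SE, n = 4 per group), of the 34 measured partner genes of solute carriers. The 10 orange points passed, from -2.05 for TFRC to 3.55 for ANKH, and the 24 grey points did not.

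Of 33 mitochondrial carriers only SLC25A4 passed in this test, 3.03% beside 12.9% of all genes, and the median log2 difference of the class was -0.003. SLC25A4, or ANT1, the ADP/ATP exchanger that dominates in muscle and heart, had 7.58, 8.25, 9.18 and 9.53 on hypertrophic arrays, against 6.50, 6.38, 6.56 and 6.24 on proliferative arrays. It rose by 2.21 ± 0.38 on the log2 scale, or 4.64-fold (adjusted p = 0.00920), in all 8 fits that leave out 1 array, and missed the threshold with arrays 3 and 4 averaged (adjusted p = 0.0699). Its other 2 probe sets lie below background in both groups. The other ADP/ATP exchangers did not pass: SLC25A5 differed by -0.53 ± 0.19 (adjusted p = 0.130), and SLC25A6 by 0.38 ± 0.11 (adjusted p = 0.0767), with values from 12.79 to 13.19 on hypertrophic and from 12.50 to 12.68 on proliferative arrays. The mitochondrial phosphate carrier SLC25A3 and the citrate carrier SLC25A1 differed by 0.38 ± 0.15 and 0.52 ± 0.15 (adjusted p = 0.159 and 0.0674). Without hypertrophic array 1, SLC25A6, SLC25A3 and SLC25A1 passed as higher (adjusted p = 0.0302, 0.0173 and 0.0314).

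In sodium-proton exchange, 1 gene of the endomembranes passed the test. Among 16 genes for sodium-proton and sodium-calcium exchange, SLC9A7 rose and 15 did not pass, with a median of -0.03. The share past the threshold was 6.25%, beside 12.9% of all genes. SLC9A7, or NHE7, which works in the trans-Golgi network, had 7.81, 7.08, 8.18 and 8.59 on hypertrophic arrays, against 5.66, 5.90, 5.66 and 4.97 on proliferative arrays. The lowest hypertrophic array was above the highest proliferative one, and the rise was 2.37 ± 0.32 on the log2 scale, or 5.16-fold (adjusted p = 0.00358). The gene passed with arrays 3 and 4 averaged (adjusted p = 0.0344) and in all 8 fits that leave out 1 array. A second probe set nearly as bright rose by 1.69 ± 0.16 (adjusted p = 0.000726), a dimmer one differed by 1.08 ± 0.33 (adjusted p = 0.0768), and the remaining 2 lie below background in both groups. SLC9A3R2, or NHERF2, a scaffold that binds exchangers at the plasma membrane and is no carrier itself, had 8.93, 9.74, 9.80 and 10.10 on hypertrophic arrays, against 8.00, 7.84, 8.04 and 7.74 on proliferative arrays. It rose by 1.74 ± 0.23, or 3.33-fold (adjusted p = 0.00313; 0.0360 with arrays 3 and 4 averaged), while its other 3 probe sets, all far dimmer, differed by -0.15 to -0.06 and did not pass. The sodium-calcium exchanger SLC8A1 was below background in both groups.

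Among 28 carriers of bicarbonate, chloride and other inorganic anions, SLC4A7 fell and 27 did not pass, with a median of 0.001. The share past the threshold was 3.57%, beside 12.9% of all genes. SLC4A7, a sodium-bicarbonate cotransporter that brings base into the cell, had 8.997, 8.78, 8.76 and 9.10 on hypertrophic arrays, against 9.62, 9.37, 9.69 and 9.44 on proliferative arrays. It fell by 0.62 ± 0.12 (adjusted p = 0.0179), and 2 of its other 3 probe sets fell too, by 0.60 ± 0.15 and 1.06 ± 0.28 (adjusted p = 0.0400 and 0.0467). The call was lost without proliferative array 1 or 3 or hypertrophic array 2 or 3 (adjusted p up to 0.0612) and with arrays 3 and 4 averaged (adjusted p = 0.0778). SLC4A2, an anion exchanger that osteoclasts need, had 8.34, 7.76, 7.38 and 7.23 on hypertrophic arrays, against 6.98, 6.44, 7.09 and 6.65 on proliferative arrays. The groups did not overlap and the difference of 0.89 ± 0.25 missed the threshold (adjusted p = 0.0632). SLC12A2, the sodium-potassium-chloride cotransporter of cell volume control, had 5.79, 7.25, 6.74 and 6.97 on hypertrophic arrays, against 6.45, 6.85, 6.92 and 6.78 on proliferative arrays, with a difference of -0.06 ± 0.28 and a 95% interval from -0.71 to 0.58. The red cell anion exchanger SLC4A1 differed by 0.30 ± 0.15 (adjusted p = 0.292).

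The sums of osteoclast, leukocyte and endothelial markers were higher on every hypertrophic array than on any proliferative array. Those of erythroid and osteoblast markers overlapped. These sums, like that of the chondrocyte markers, were taken over linear values, so the brightest genes of a list weigh most. On hypertrophic array 3 the osteoclast sum was 11.93 and MMP9 alone 11.31. Summed over 8 osteoclast markers, the log2 level was 11.9 to 12.9 on hypertrophic and 9.79 to 10.9 on proliferative arrays, highest on hypertrophic arrays 1 and 2. In that list 2 of 8 rose, MMP9 and ATP6V0D2, and DCSTAMP, OCSTAMP and CALCR were below background in both groups. ATP6V0D2 passed in all 8 fits that leave out 1 array and MMP9 in 4. With arrays 3 and 4 averaged MMP9 missed the threshold in limma (adjusted p = 0.0794). CTSK, TCIRG1 and ITGB3 differed by 1.08 ± 0.41, 0.79 ± 0.23 and 0.56 ± 0.25 without passing (adjusted p = 0.159, 0.0671 and 0.227). All 8 differences were positive, but those of DCSTAMP, OCSTAMP and CALCR (0.07, 0.24 and 7.5e-05) lie below background and carry no direction. SLC4A2 and SLC37A2, which osteoclasts also express and which did not pass, were highest on hypertrophic array 1 and next on array 2. The genes described here that rose had another order. SLC16A7, SLC16A9, SLC25A4, SLC22A5 and SLC9A3R2 were lowest in their group on hypertrophic array 1, and SLC9A7 on array 2. For 8 leukocyte markers the sums were 9.50 to 10.5 on hypertrophic and 8.06 to 8.44 on proliferative arrays, with PTPRC and CYBB below background. Of these markers 2 rose, LAPTM5 and CD74, and 1 fell, CD3E. LAPTM5 passed in all 8 fits that leave out 1 array, CD74 in 3 and CD3E in 2. With arrays 3 and 4 averaged CD74 and CD3E missed the threshold in limma (adjusted p = 0.108 and 0.107). For 10 endothelial markers the sums were 10.1 to 10.4 on hypertrophic and 9.35 to 9.76 on proliferative arrays, and KDR was below background. Of the 10 differences, 8 were positive and 2 negative, and 3 genes rose, CDH5, TEK and VWF. CDH5 and TEK passed in all 8 fits that leave out 1 array and VWF in 4. VWF also missed the threshold in limma with arrays 3 and 4 averaged (adjusted p = 0.0914). For 6 erythroid markers, none past the threshold in limma, the sums were 13.2 to 13.5 on hypertrophic and 10.8 to 13.5 on proliferative arrays, and for 4 osteoblast markers, also without a call, they were 11.8 to 12.9 and 12.3 to 12.5. The part of these cells in the differences of the solute carriers was not tested.

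The carnitine importer SLC22A5 rose and the vesicular carrier SLC17A9 fell. Of 19 carriers of organic anions, cations and bile acids, SLC22A5 rose and 18 did not pass, with a median of -0.07. That is 5.26% past the threshold, beside 12.9% of all genes. SLC22A5, or OCTN2, the carnitine importer that feeds fatty acid oxidation, had 8.33, 8.40, 8.60 and 9.03 on hypertrophic arrays, against 7.49, 7.82, 7.27 and 7.10 on proliferative arrays. It rose by 1.17 ± 0.20 on the log2 scale, or 2.25-fold (adjusted p = 0.00932), in all 8 fits that leave out 1 array, and missed the threshold with arrays 3 and 4 averaged (adjusted p = 0.0707). A dimmer probe set of the gene differed by 0.39 ± 0.17 without passing (adjusted p = 0.224), and its remaining 2 were below background. Of 9 vesicular carriers, SLC17A9 fell and 8 did not pass, 11.1% past the threshold beside 12.9% of all genes, with a median of 0.07. SLC17A9, which loads ATP into secretory vesicles, had 7.37, 6.82, 5.37 and 5.69 on hypertrophic arrays, against 8.33, 7.81, 7.99 and 7.81 on proliferative arrays. It fell by 1.67 ± 0.40, a 3.18-fold lower level (adjusted p = 0.0364), and 1 of its other 2 probe sets fell by 1.24 ± 0.26 (adjusted p = 0.0206). The representing probe set passed in the fit without hypertrophic array 1 (adjusted p = 0.00451) and missed the threshold without any 1 of the other 7 arrays (adjusted p up to 0.0968) and with arrays 3 and 4 averaged (adjusted p = 0.171).

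In the remaining classes no gene passed in limma, beside 12.9% of all genes. Of 14 carriers of vitamins, heme and choline, 5 had an unadjusted p under 0.05, beside 3888 of all 13009 genes. The folate carrier SLC19A1 and the thiamine carrier SLC19A2 differed by 0.36 ± 0.13 and -0.42 ± 0.13 (adjusted p = 0.121 and 0.0774). Of 5 carriers of fatty acids, acetyl-CoA and lipids, 2 had an unadjusted p under 0.05, the acetyl-CoA carrier SLC33A1 at -0.60 ± 0.18 (adjusted p = 0.0800) and the fatty acid carrier SLC27A1. The proliferative mean of SLC27A1 lies below background, which bounds its difference at 0.32 or higher (estimate 0.86 ± 0.33, adjusted p = 0.158). Of 5 nucleoside carriers, 1 had an unadjusted p under 0.05, SLC29A3 of lysosomes, at 0.58 ± 0.17 (adjusted p = 0.0701), while SLC28A3 was below background in both groups. The single urea carrier, SLC14A2, was below background in both groups as well. Without hypertrophic array 1, SLC19A1, SLC27A1 and SLC29A3 passed as higher (adjusted p = 0.0341, 0.00256 and 0.0253) and SLC19A2 and SLC33A1 as lower (adjusted p = 0.0333 and 0.00490).

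The spread over arrays was wider in hypertrophic cells for most of these genes, as it was for most genes on the array. The SD over hypertrophic arrays exceeded that over proliferative arrays in 145 of the 231 genes, or 62.8%, beside 63.8% of all genes, with medians of 0.248 and 0.197. The 10 genes with the widest range over the hypertrophic arrays, among those with a group mean above background, were chosen after their values were seen. SLC26A5, or prestin, belongs to a family of anion carriers and is known as a motor protein of mammalian hair cells. It had 6.22, 7.94, 9.36 and 9.25 on hypertrophic arrays, against 6.25, 6.11, 6.36 and 6.12 on proliferative arrays. Hypertrophic array 1 lay within the proliferative range and the other hypertrophic arrays well above it. Its difference of 1.98 ± 0.61 did not pass (adjusted p = 0.0808) and passed without hypertrophic array 1 (adjusted p = 0.00116). SLC18B1, a vesicular polyamine carrier, was also lowest in its group on hypertrophic array 1, with 7.50, 8.97, 9.56 and 9.84 on hypertrophic arrays, against 7.44, 7.37, 7.77 and 7.89 on proliferative arrays, and likewise passed only in the fit without hypertrophic array 1 among the 8 that leave out 1 array (adjusted p = 0.00126; 0.103 with all arrays).

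SLC22A16, an organic cation and carnitine carrier, had 7.74, 8.70, 11.10 and 10.62 on hypertrophic arrays, against 7.47, 7.97, 8.63 and 8.92 on proliferative arrays, with arrays 3 and 4 the highest of either group. The potassium-chloride cotransporter SLC12A7 had 3.98, 4.40, 6.29 and 6.20 on hypertrophic arrays, against 4.20, 4.35, 4.43 and 4.22 on proliferative arrays, so that hypertrophic arrays 3 and 4 stood above background and all others below it. SLC25A25, a mitochondrial carrier of ATP-magnesium and phosphate, had 6.60, 6.75, 8.62 and 8.84 on hypertrophic arrays, against 8.15, 8.43, 9.46 and 9.28 on proliferative arrays, again with arrays 3 and 4 the highest of each group. None of these 3 passed in the main limma fit of all arrays, which has no block (adjusted p = 0.334, 0.333 and 0.281), or in a fit without 1 array. The other 5 of the 10 were SLC16A9, SLC16A7, SLC16A1, SLC35D1 and SLC17A9.

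**Figure D4:**
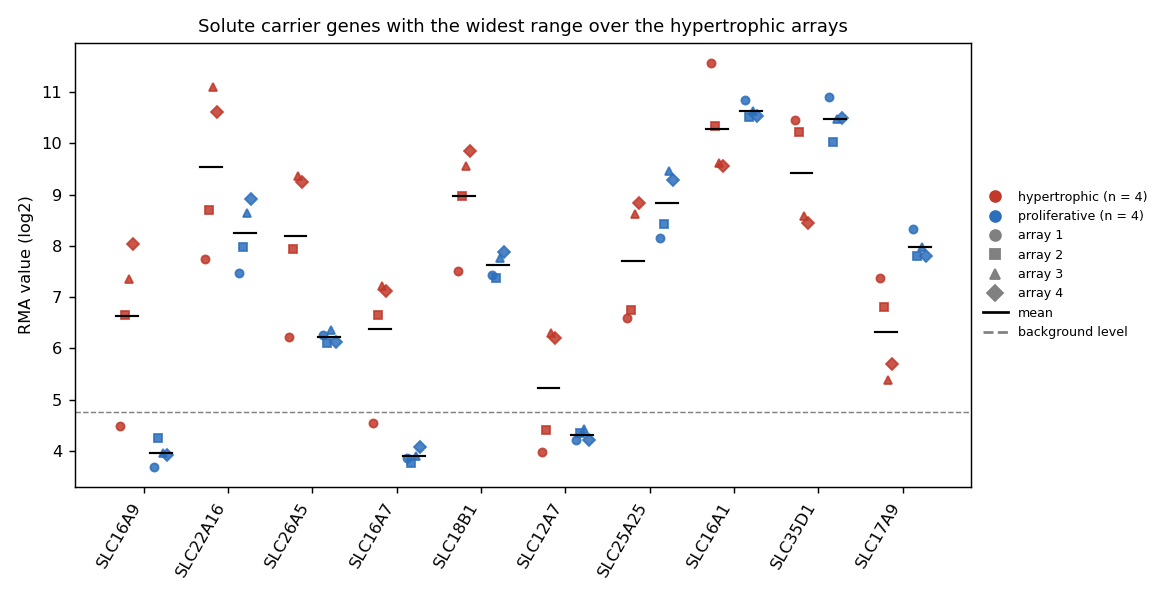
RMA values (log2, vertical axis) of the 10 genes with the widest range over the hypertrophic arrays, with hypertrophic arrays in red at the left and proliferative arrays in blue at the right of each gene. Marker shapes give the array number, black bars the group means and the dashed line the background level of 4.75. Hypertrophic array 1 lies near the proliferative values of SLC26A5, SLC18B1 and SLC12A7, below hypertrophic arrays 3 and 4.

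Some genes did not pass by the representing probe set but had another that passed. Of the 216 genes that did not pass, 13 had such a dimmer probe set, a share not counted over all genes, and in no gene did probe sets pass in opposite directions. Among these was a probe set of SLC35F3, with 4.66, 5.82, 6.47 and 6.75 on hypertrophic arrays, against 3.07 to 3.67 on proliferative arrays. It rose by at least 1.17 on the log2 scale (estimate 2.52 ± 0.40, adjusted p = 0.00737), while the representing probe set of SLC35F3 differed by 0.37 ± 0.16 (adjusted p = 0.226). A dimmer probe set of SLC10A7, a carrier needed for skeletal glycosaminoglycan synthesis in humans and mice, fell by 1.30 ± 0.31 (adjusted p = 0.0345). The representing probe set of SLC10A7 had 9.88, 9.45, 8.56 and 8.62 on hypertrophic arrays, against 10.28, 9.89, 10.16 and 10.04 on proliferative arrays, and its -0.96 ± 0.28 missed the threshold (adjusted p = 0.0721) and passed without hypertrophic array 1 (adjusted p = 0.00865). These probe sets were picked after their values were seen.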

How the data were processed

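The deposited table holds 1 log2 value per probe set and array, made by the authors with RMA according to the submitters' processing notes, which name no software version. RMA normalises all arrays together, so differences are relative to the other genes. The precision is limited by the number of arrays. Groups came from the sample titles. Of 38535 rows, 96 control probe sets were left out. Names came from the platform annotation and, by gene number, from a RefSeq table that held 229 of the 231 genes; 27168 probe sets had 1 symbol, 177 several (unnamed here) and 11094 none.

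Differences were tested two-sided with limma 3.58.1 (lmFit, then eBayes; R 4.3.3), with Benjamini-Hochberg adjustment over 38439 probe sets and a threshold of 0.05. The code was tested on simulated data. The genes, lists, substrate classes and alternatives were chosen with earlier results of these data known. Each substrate class takes in whole families, so single genes in it may carry other substrates. Named genes are the 15 largest rises and falls past the threshold without overlap, up to 3 per class (or, in a class without any, the 2 smallest p), and growth plate carriers picked by function. Changes of direction under an alternative were looked for among genes past the threshold. From the partner list, all that passed and the 2 next by p are named. The other carriers and partner genes given were chosen after their values were seen. Alternatives covered dim probe sets, normalisation, the variance model, array weights, blocks, omitted or averaged arrays, the probe set summary, the adjustment and a minimum change.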

Additional observations from a re-analysis of the deposited data

Results flagged for a closer look

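Among 162 groups of 4 arrays examined, for named solute carriers and the partner list, 3 had 1 array far from the other 3 by Dixon's criterion, and chance gives about 1 in 20. SLC25A51, a mitochondrial carrier of NAD whose difference of 0.56 ± 0.17 did not pass (adjusted p = 0.0754), had 7.63 on proliferative array 1, against 6.997 to 7.103 on the other proliferative arrays, and passed without that array (adjusted p = 0.0293) and in the fit whose block separates arrays 1 and 2 from 3 and 4 (adjusted p = 0.0228). The copper chaperone ATOX1 had 9.90 on proliferative array 2, against 10.08 to 10.11 on the others of its group, and passed with or without it. STK39, a kinase that acts on cation-chloride cotransporters, had 3.26 on proliferative array 1, against 2.89 to 2.91 on the others of its group, all below background.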

How the results depend on the processing

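None of the 15 genes that passed changed direction under any alternative tried. Their groups do not overlap, so fits that omit, average or weight arrays could not have turned the sign. Counts of solute carriers in this section take in the genes of the symbol rule that encode no carrier. Counts of classes take in the group of those genes. With all arrays 6 solute carriers were higher and 9 lower, beside 955 and 728 of all genes and 4 and 6 of the partner list. A higher gene was held by 5 classes and a lower gene by 6. SLC9A3R2, which is no carrier, is 1 of the 6 higher, and its group is 1 of the 5 classes. Without such genes, 5 carriers were higher and 9 lower. Averaging arrays 3 and 4 gave 2 and 1 solute carriers, 261 and 161 genes, 0 and 2 partners, and 2 and 1 classes. SLC9A3R2 and its group are again counted there, and without them 1 carrier was higher and 1 lower. Arrays 1 and 2 alone gave 2 and 3, 309 and 278, 0 higher partners, and 2 and 3 classes; arrays 3 and 4 alone, which hold little independent spread, gave 30 and 45, 2356 and 2211, 8 and 12, and 13 and 11. Arrays 1 and 2 against 3 and 4 as a block gave 15 and 21 solute carriers, 1418 and 1197 genes, 10 partners lower, and 8 and 10 classes. Array weights, which favour arrays 3 and 4, gave 23 and 41, 1973 and 1694, 11 partners lower, and 11 and 11 classes. Ribosomal centring gave 33 solute carriers, 1742 genes, 11 partners and 12 classes lower. A minimum change of 1.2-fold left 2 solute carriers lower, 456 and 272 genes, 1 and 3 partners and 2 classes lower. Adjustment over genes gave 10 solute carriers, 1178 genes and 8 classes higher, and cyclic loess 10 solute carriers and 1141 genes higher. The mean of a gene's probe sets gave 17 solute carriers, 971 genes and 10 classes lower. In the fits without 1 array, 4 to 17 solute carriers were higher and 2 to 15 lower, with 484 to 1562 and 301 to 941 genes, 3 to 7 partners lower, and 4 to 10 and 2 to 9 classes. Omitting hypertrophic array 1 gave the most calls of solute carriers, omitting proliferative array 3 the fewest.

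Replicate numbers were not taken to pair the samples, since same-numbered arrays correlated at 0.22, -0.08, 0.20 and -0.01 in their deviations from the group means over 9905 genes. Hypertrophic arrays 3 and 4 correlated with proliferative arrays 3 and 4 at -0.01 to 0.22 and with proliferative array 1 at -0.38 and -0.21, and hypertrophic array 2 correlated with proliferative array 1 at 0.34. With the replicate block 8 solute carriers were higher and 11 lower, beside 867 and 684 of all genes. Of the 15 calls, 13 were shared.

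Some differences, none past the threshold with all arrays, changed sign. Those of SLC30A1 and SLC16A1 were -0.96 and -0.36 with all arrays, and the others named here lay closer to 0. SLC8A1 came to -0.17 with ribosomal centring, -0.0694 with array weights, -0.16 with arrays 3 and 4 alone and -0.11 as the mean of its probe sets. SLC40A1 came to 0.00635 with cyclic loess, 0.000493 with arrays 3 and 4 averaged and 0.0355 with arrays 1 and 2 alone. SLC12A2 came to 0.0680 with array weights and 0.00175 with arrays 3 and 4 alone. With arrays 3 and 4 alone SLC14A2 was at 0.0537 and SLC30A1 at 0.0945, and with arrays 1 and 2 alone SLC16A1 was at 0.27, SLC25A37 at 0.00377 and SLC35B2 at 0.18. Leaving out 1 array gave -0.25 to 0.23 for SLC12A2, -0.14 to 0.0731 for SLC14A2, -0.17 to 0.0424 for SLC25A37, -0.28 to 0.0526 for SLC35B2, -0.23 to 0.22 for SLC40A1 and -0.10 to 0.13 for SLC8A1. The causes were not tested. Signal over background limits the 60 genes below background in both groups.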
